A study of Mus musculus with 12 samples.

Results

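The genes described here encode nuclear subunits of respiratory complexes I, II and III, the first part of the electron transport chain in the inner mitochondrial membrane. They were chosen by name, as the listed subunits with an entry in both deposited expression tables. This gave 47 genes of the 26382 that both tables hold: 34 of complex I, 4 of complex II and 9 of complex III. All 47 passed the filter on low values in both cell types, set at a genotype mean of 0.5 FPKM (fragments counted, scaled by transcript length and library size).

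RNA had been sequenced from the mural granulosa cells of the follicle wall (MGCs) and from the cumulus cells around the oocyte. The cells came from eCG-primed female mice at 2 h after hCG, a hormone with LH activity. The control mice were WT (C57/BL6), with neither a Cre transgene nor a floxed allele stated. The knockout mice, Sphk1/2gc-/-, were Sphk1-/-; Sphk2 fl/fl; Fshr-Cre. They lacked the sphingosine kinase Sphk1 in every cell and lost Sphk2 where Fshr-Cre is active, that is, in granulosa cells. A control for Cre alone is therefore not stated. The 4 groups (WT and knockout, KO, in each cell type) held 3 libraries each, and the labels do not say that replicates came from separate mice, so that p-values measure the spread between these libraries only.

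Complex I takes electrons from NADH and complex II takes them from succinate. Both pass them to ubiquinone, and complex III passes them on to cytochrome c. Complexes I and III pump protons on the way and so drive the ATP synthase. Complex I is built from modules: an N module that oxidises NADH, a Q module that reduces ubiquinone, and the PP and PD modules of the membrane arm. Cumulus cells supply the oocyte with pyruvate and other nutrients, and the oocyte relies on its own respiratory chain for ATP.

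Short promoter sequences are given first. Of the 11 members that fell in knockout cumulus cells, 4 shared a sequence at the same place, as did 1 member that did not pass the test. The mouse promoter sequences (RefSeq, GRCm38.p6, from 250 bases before to 50 bases after the start of transcription) matched 39 of the 47 members by symbol. Uqcrq, 1 of the 11 that fell, was not matched. The sequence AAGATGGCG, which matches the YY1 motif AANATGGCG, lay 20 to 40 bases into the transcript in 5 of these 39 members. The motif AANATGGCG, with any base at N and on the strand of the gene, lay there in the same 5 members (12.8%). This looser motif lay there in 0.662% of the 27025 genes with a promoter sequence. Of the 8286 of them that were tested in cumulus cells, 1.97% held it there. This stretch was chosen after the positions of the matches were seen. The letters are the 30 bases around the match on the strand of the gene, 5′ to 3′, with the match in capitals:
Ndufc1, chr3:51408914-51408943, minus strand: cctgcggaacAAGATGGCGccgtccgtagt
Ndufs4, chr13:114388045-114388074, minus strand: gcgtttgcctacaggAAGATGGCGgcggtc
Ndufs6, chr13:73328433-73328462, minus strand: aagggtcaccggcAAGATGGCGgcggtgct
Ndufa9, chr6:126849096-126849125, minus strand: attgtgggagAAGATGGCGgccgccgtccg
Ndufs7, chr10:80249463-80249492, plus strand: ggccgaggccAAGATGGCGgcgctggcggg

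The second sequence is the NRF1 motif GCGCANGCG. NRF1 is a transcription factor known for its sites before respiratory genes. On either strand, 11 of the 39 members (28.2%) held the motif in the 300-base window, against 7.03% of all 27025 genes and 16.2% of those tested in cumulus cells. The last 100 bases before the start are shown for 4 members with a match there on the strand of the gene, of which Ndufa5 and Ndufb4 fell in knockout cumulus cells and the complex II subunits Sdha and Sdhd did not pass the test. The match is in capitals:
Ndufa5, chr6:24527691-24527790, minus strand: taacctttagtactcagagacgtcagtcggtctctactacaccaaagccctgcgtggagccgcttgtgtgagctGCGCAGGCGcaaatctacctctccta
Ndufb4, chr16:37654369-37654468, minus strand: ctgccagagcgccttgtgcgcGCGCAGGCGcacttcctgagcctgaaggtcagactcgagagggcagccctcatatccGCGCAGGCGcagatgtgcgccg
Sdha, chr13:74350241-74350340, minus strand: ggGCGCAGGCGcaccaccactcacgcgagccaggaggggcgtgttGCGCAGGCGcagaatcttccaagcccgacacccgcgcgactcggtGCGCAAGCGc
Sdhd, chr9:50603850-50603949, minus strand: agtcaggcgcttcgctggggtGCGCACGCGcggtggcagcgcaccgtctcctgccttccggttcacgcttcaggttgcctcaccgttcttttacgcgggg

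The other motifs were also searched on both strands. The CRE motif TGACGTCA lay in 4 of the 39 members (10.3%) and in 3.91% of the genes tested in cumulus cells, and the ERRA motif CAAGGTCA in 1 member (2.56%) and in 1.23%. The ETS motif CCGGAAG, a match for GABPA, lay in 20.5% and 21.6%, and the SP1 motif GGGCGGG in 35.9% and 51.8%. Over the whole window the YY1 motif lay in 17.9% of the members and in 6.66% of the tested genes. No match of one motif overlapped a match of another. These are matches of letters and say nothing of whether a factor was bound.

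The libraries held between 16100365 and 19761604 counted fragments. These totals were recovered from the steps between the FPKM values, of which 90.6% to 92.1% were whole multiples within 0.02 of a fragment. The fewest fragments behind the value of a member in any library were 15 in cumulus cells (Ndufb6) and 46 in MGCs (Ndufb2), with a counting error of 25.8% and 14.7%. Granulosa markers were present in both tables, with summed levels of 2340 to 3712 FPKM in cumulus cells and 8524 to 14409 FPKM in MGCs. Sphk1 was at 0.0911, 0.0699 and 0.0954 FPKM in the WT cumulus libraries and at 0.0778, 0.456 and 0.557 FPKM in those labelled KO, and in MGCs it was at 1.68, 1.89 and 0.46 FPKM against 0.432, 0.557 and 0.104 FPKM. Sphk2 was at 0.508 ± 0.0999 FPKM (SD, n = 3) in WT and 0.586 ± 0.16 FPKM (n = 3) in KO cumulus cells. A whole-gene FPKM also counts fragments outside the deleted exons, so that these values do not check the labels, and WT and KO mean the libraries labelled so throughout.

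In WT cumulus cells the members spanned 0.343 to 488 FPKM, with a median of 47.5 FPKM. Sdhd, a membrane anchor of complex II, was the highest, and Ndufb2, of the membrane arm of complex I, was the lowest. In WT MGCs they spanned 0.766 (Ndufb2) to 93.2 FPKM (Ndufa6), with a median of 21.7 FPKM. The median coefficient of variation between replicates was 14.4% in WT and 23.8% in KO cumulus cells, and 9.7% and 28.2% in WT and KO MGCs.

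The subunits did not keep the same proportions in both cell types, although they form fixed complexes in the mitochondrion. In WT cells 34 of the 47 members had a higher mean FPKM in cumulus cells than in MGCs and 13 had a lower one. The ratio of cumulus cells to MGCs ranged from 0.14 for Ndufa1 to 12 for Sdhd, with a median of 2.76. Ndufs3, a core subunit of the Q module, stood at 222 ± 10.5 FPKM (SD, n = 3) in cumulus cells and 19.2 ± 0.965 FPKM (n = 3) in MGCs, whereas Ndufa1 stood at 6.56 ± 2.39 FPKM and 47 ± 2.96 FPKM. The rank correlation of the levels between the cell types was 0.482 over the 47 members and 0.647 over the 15869 genes in the joint fit, given as a description across genes, which are not independent. The tables had been normalised separately, so that levels were not tested between cell types.

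**Figure D1:**
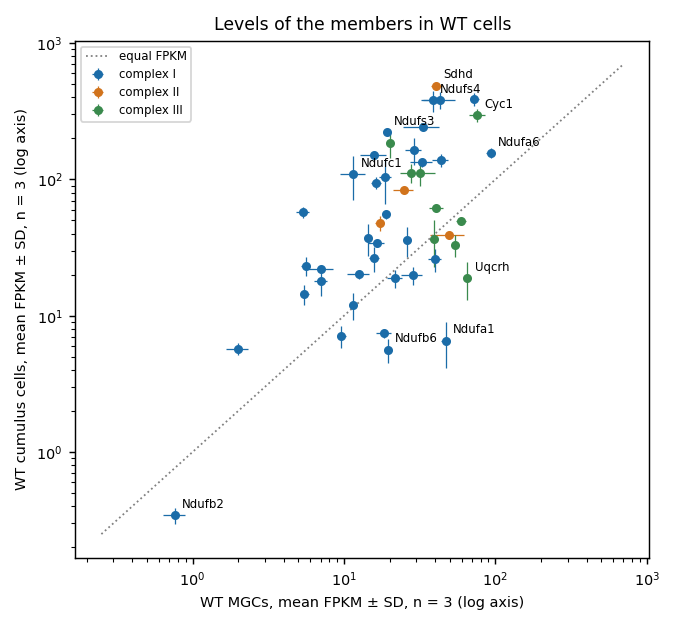
Mean FPKM ± SD (n = 3) of each of the 47 members in WT MGCs (x, log axis) and WT cumulus cells (y, log axis), coloured by complex, with the dotted line at equal FPKM. 34 members lie above the line and 13 below it, from Ndufa1 at a ratio of 0.14 to Sdhd at 12.

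The first comparison was KO against WT in cumulus cells. Of the 47 members, 46 had a lower mean log2 value in the knockout, and 11 fell at an adjusted p of 0.05 or less in limma with Benjamini-Hochberg adjustment over all 12205 genes tested, whereas 0 rose (1 when p was left unadjusted). Of the 12205 genes, 12.7% fell and 9.66% rose by the same rule, against 23.4% of the members that fell. The median log2 fold change of the members was -0.49, and that of all genes tested was -0.06. The summed level of the members was 4684 ± 439 FPKM (SD, n = 3) in WT and 3201 ± 411 FPKM (n = 3) in KO cumulus cells, a difference of -31.7%. In RNA from many cells, fewer cells of a type and less RNA per cell cannot be told apart.

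**Figure D2:**
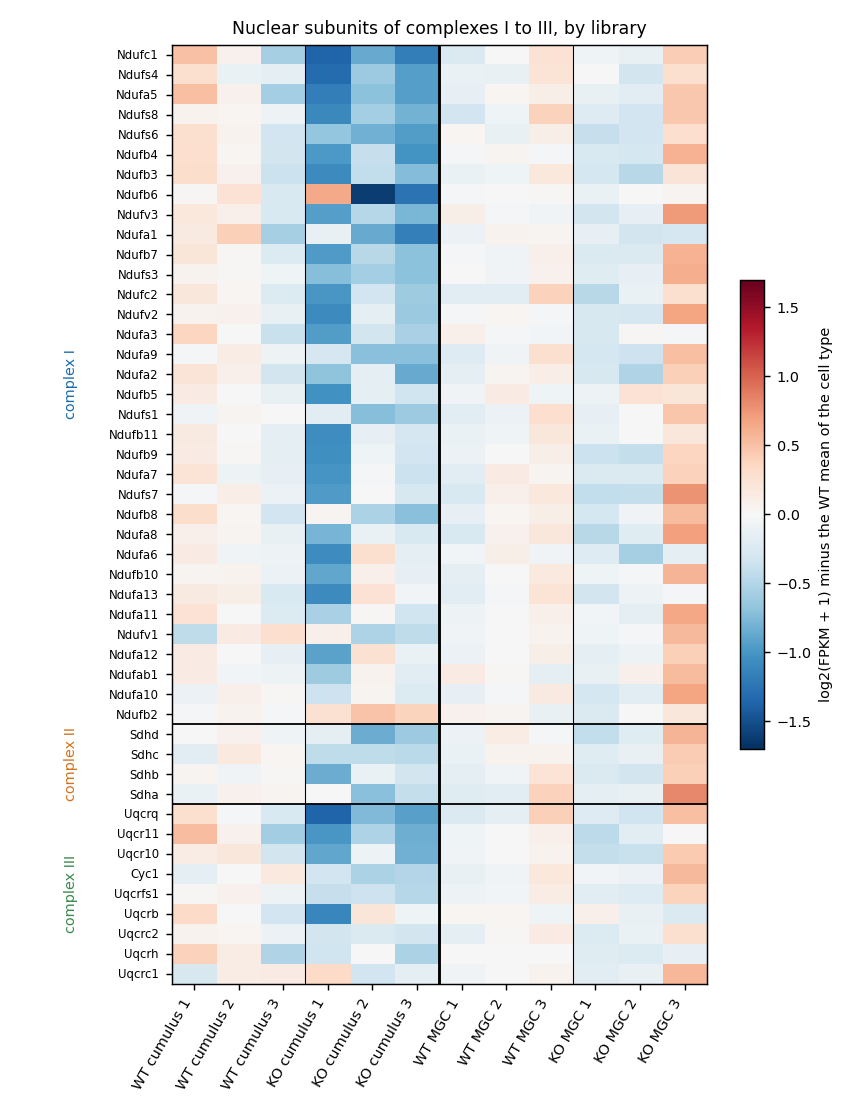
Difference of log2(FPKM + 1) from the WT mean of the cell type, for each of the 47 members (y, ordered within each complex by the change in cumulus cells) in each of the 12 libraries (x). Blue is below the WT mean and red is above it. The KO cumulus columns are mostly blue, with medians of -0.88, -0.33 and -0.54, and the column of KO MGC replicate 3 is mostly red, with a median of 0.43.

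By complex, 10 of the 34 subunits of complex I fell, 0 of the 4 of complex II (2 at an unadjusted p of 0.05 or less) and 1 of the 9 of complex III. The medians of the log2 fold changes were -0.54, -0.43 and -0.41. Within complex I, the Q module had 4 of 5 members that fell, the N module 3 of 10, the PD module 2 of 10 and the PP module 1 of 8. The medians of these modules were -0.67, -0.54, -0.50 and -0.50. A difference between complexes or modules was not tested. With a change of 2-fold or more as well, 2 members fell (Ndufc1 and Uqcrq), against 3.85% of all genes.

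The members with the largest changes in complex I were mostly accessory subunits, which have no redox centre. Ndufc1, a small subunit of the PP module on chromosome 3, was at 149, 110 and 70.5 FPKM in the WT libraries and at 40.4, 57.7 and 46 FPKM in the KO libraries. Every KO library was below every WT library, although the WT values themselves spread over a wide range. The log2 fold change was -1.13 ± 0.27 (SE), with an adjusted p of 0.022 in limma. Ndufs4, which sits beside the N module and whose loss in mice gives a form of Leigh syndrome, was at 457, 349 and 336 FPKM in WT and at 151, 245 and 198 FPKM in KO. All KO libraries were again lower, by -0.95 ± 0.21 on the log2 scale (limma adjusted p = 0.0163).

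Ndufa5, an accessory subunit of the Q module, was at 141, 104 and 65.7 FPKM in WT against 43.2, 60.4 and 51 FPKM in KO. Its lowest WT library was close to its highest KO library, and the log2 fold change was -0.94 ± 0.27 (limma adjusted p = 0.0419). Ndufs6, an accessory subunit that binds zinc, was at 31.4, 27.1 and 20.5 FPKM in WT against 16.1, 14.3 and 12.9 FPKM in KO. The groups did not overlap, and the log2 fold change was -0.81 ± 0.19 (limma adjusted p = 0.0193). Of the other accessory subunits of complex I, Ndufb4 fell from a mean of 12 to 6.51 FPKM, Ndufv3 from 14.3 to 8.23 FPKM, Ndufb7 from 23.3 to 13.9 FPKM and Ndufa9 from 150.1 to 102 FPKM.

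Among the core subunits of complex I, which include those that carry the flavin and the iron-sulphur clusters, Ndufs8 and Ndufs3 of the Q module changed most. Ndufs8, an iron-sulphur subunit of the Q module, was at 253, 248 and 227 FPKM in WT and at 113, 162 and 138 FPKM in KO. Ndufs3, its partner in the Q module, was at 231, 225 and 210.3 FPKM in WT and at 134, 148 and 136 FPKM in KO. Both had narrow WT values and a clear gap between the groups, and their log2 fold changes were -0.83 ± 0.17 and -0.67 ± 0.14 (limma adjusted p = 0.0118 for each). They were the only core subunits among the 14 of all complexes to pass the test. Ndufs3, like the accessory subunit Ndufb4, has a processed pseudogene of near-identical sequence, so that the split of fragments between gene and copy is uncertain.

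The remaining core subunits of complex I did not pass. Ndufs1, the largest subunit of the N module, was at 21.2, 22.9 and 22.3 FPKM in WT against 19.4, 13 and 14.1 FPKM in KO, with no overlap and a log2 fold change of -0.51 ± 0.18 (limma adjusted p = 0.0713). Ndufv2, an iron-sulphur subunit, was at 57.9, 58.6 and 50.8 FPKM against 25.8, 49.8 and 35.5 FPKM (-0.62 ± 0.23). Its KO libraries spread widely, with the highest just below the lowest WT library. Ndufs7, which carries the last iron-sulphur cluster before ubiquinone, was at 19.9, 21.8 and 18.8 FPKM against 9.89, 20.3 and 16.5 FPKM, and Ndufv1, the NADH-binding flavoprotein, was at 25.8, 38.7 and 43 FPKM against 37.3, 24 and 25.8 FPKM. In both of these the groups overlapped, and KO replicate 1 was the lowest KO library for Ndufs7 and the highest for Ndufv1.

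Complex II is encoded wholly in the nucleus, and its 4 subunits were all lower in mean. Sdhb, the iron-sulphur subunit, was at 86.4, 80 and 84.8 FPKM in WT against 46.4, 77.6 and 67.3 FPKM in KO. The anchor Sdhc was at 41.2, 53 and 48.4 FPKM against 34.7, 34.7 and 34.1 FPKM, and the anchor Sdhd at 488, 515 and 461 FPKM against 434, 270.2 and 316 FPKM. In these 3 subunits every KO library was below every WT library, yet the limma adjusted p was 0.165, 0.0657 and 0.0735. Sdha, the flavoprotein that oxidises succinate, overlapped between the groups, at 36, 41.1 and 40.5 FPKM against 39.4, 23.6 and 29.4 FPKM. The log2 fold changes of the complex lay between -0.55 and -0.37.

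In complex III the change was largest for a small accessory subunit. Uqcrq was at 133, 108 and 91.5 FPKM in WT against 41.9, 64.9 and 57.5 FPKM in KO, a log2 fold change of -1.01 ± 0.21 (limma adjusted p = 0.013). It was the only subunit of this complex to pass. Uqcr11, another small subunit, was at 50.8, 36.7 and 22.9 FPKM against 17.1, 23.9 and 19.2 FPKM, with an overlap between the groups and an adjusted p of 0.0744 in limma.

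The core subunits of complex III had smaller differences. Uqcrfs1, the Rieske iron-sulphur protein, was at 49.8, 51.6 and 46.2 FPKM in WT against 37.4, 38.4 and 34.8 FPKM in KO. Cyc1, cytochrome c1, was at 262, 297 and 329.7 FPKM against 234, 202 and 208 FPKM. Neither overlapped between the groups, and the log2 fold changes were -0.41 ± 0.14 and -0.46 ± 0.15 (limma adjusted p = 0.0651 and 0.0624). The core protein Uqcrc2 stood at 63.9, 63 and 57.3 FPKM against 49.3, 51.6 and 49 FPKM (-0.29 ± 0.14), while Uqcrc1 stood at 91.9, 122 and 122 FPKM against 139, 88.2 and 99 FPKM. Uqcrc1 had the log2 fold change closest to 0 of all members in cumulus cells, -0.06 ± 0.21.

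A single member went against the others. Ndufb2 was at 0.32, 0.395 and 0.314 FPKM in WT and at 0.604, 0.872 and 0.741 FPKM in KO, so that every KO library was above every WT library. The log2 fold change was 0.37 ± 0.13 (limma adjusted p = 0.0767). It was also the lowest member, and its exons overlap those of Gm42420 on the same strand, so that the fragments of these 2 genes cannot be fully told apart.

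**Figure D3:**
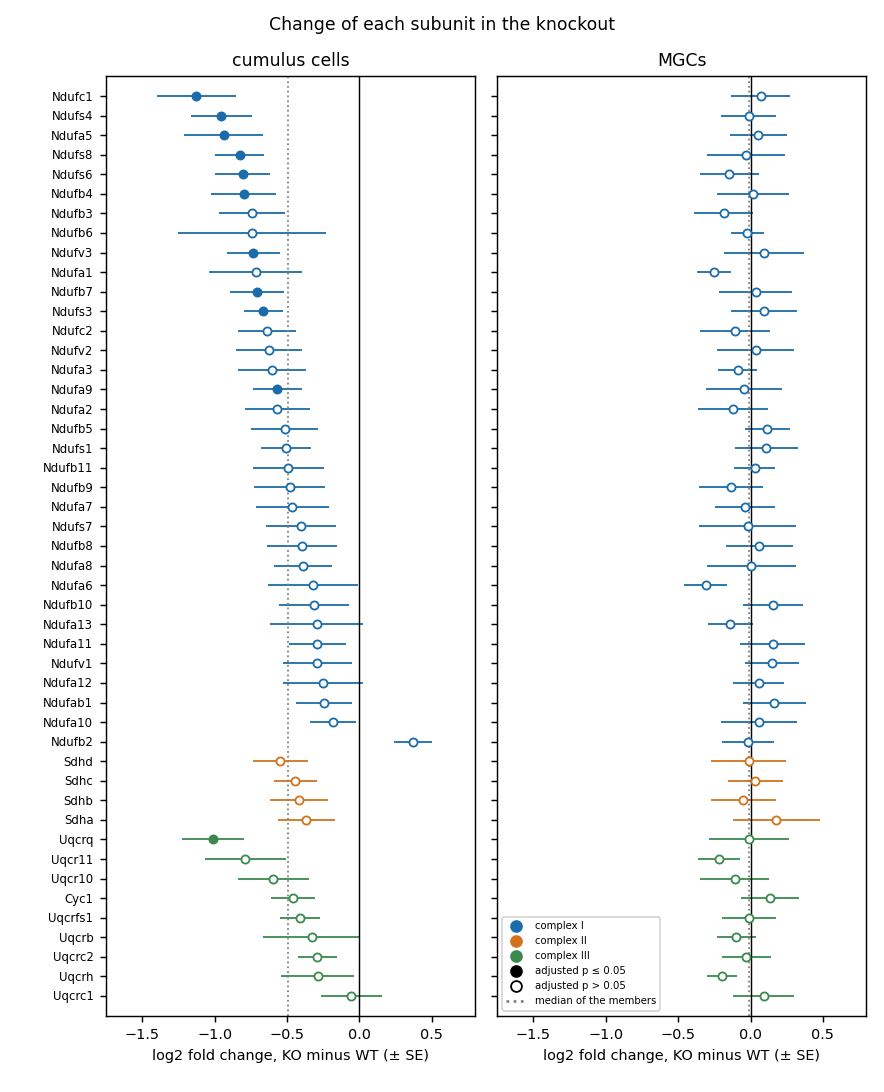
Log2 fold change, KO minus WT, ± SE for each member in cumulus cells (left) and MGCs (right), coloured by complex, filled where the limma adjusted p was 0.05 or less. In cumulus cells 46 of 47 points lie left of 0 and 11 are filled. In MGCs none is filled, and the points lie between -0.31 and 0.18.

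In 22 of the 47 members (46.8%) every KO cumulus library was below every WT library, against 24.1% of the genes tested. The KO libraries were unlike each other, however. KO replicate 1 was below all WT libraries for 39 members, replicate 2 for 28 and replicate 3 for 42. The median difference of the members from the WT mean was -0.88, -0.33 and -0.54 on the log2 scale, whereas the median over all tested genes was between -0.06 and -0.05 in each of them.

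KO replicate 1 differed from the other KO libraries in direction as well. It was the lowest KO library for 30 members, among them 25 of complex I, and the highest for 11. Ndufa12, Ndufa13 and Uqcrb were below the WT range in replicate 1 alone, whereas Ndufa1, Ndufb6, Ndufb8, Ndufv1 and Sdha were below it in replicates 2 and 3 alone (genes chosen here after their values were seen). Ndufb6 was the extreme case, at 5.65, 6.75 and 4.49 FPKM in WT against 9.26, 1.15 and 1.74 FPKM in KO. Ndufa1 was at 7.12, 8.63 and 3.94 FPKM in WT against 5.7, 3.02 and 2.24 FPKM in KO. Both are low in cumulus cells and rest on few fragments.

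Without KO replicate 1, 16 members fell, of which 9 were among the 11 above, and 17.8% of 12335 genes fell. The members that joined were Ndufa1, Ndufb6, Ndufs1, Sdha, Sdhd, Uqcrfs1 and Cyc1, and Ndufa5 and Ndufb4 left. Of those that joined, 2 belong to complex II and 2 to complex III. Without WT replicate 1 no member passed in limma, and 753 of 12261 genes fell. Before adjustment, 16 of the 47 members and 3752 of the 12261 genes were at or under 0.05 in that fit. Without WT replicate 2, 2 members (4.26%) fell and 768 of 12246 genes fell. Without KO replicate 3, 2 members (4.26%) fell and 684 of 12185 genes fell. With all 6 libraries, 24 of the 47 members (1 of them higher in KO) were at or under 0.05 before adjustment in limma. Of all 12205 genes, 38.2% were. The median log2 fold change of the members stayed between -0.61 and -0.45 whichever library was left out.

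Transcript length moved with these differences. The annotated transcripts of the members were short, with a median of 1005 nt and a range of 419 to 4371 nt. Among all tested genes with a mean over the cumulus libraries of 15 FPKM or more, the median log2 fold change was -0.33 for 327 genes with transcripts under 1000 nt, -0.24 for 922 genes of 1000 to 2000 nt and 0.01 for 1332 longer genes. The medians of the members at this level were -0.49 (19 members), -0.51 (17) and -0.44 (3). Of those genes 21.7%, 25.1% and 11% fell, while 3 of 19, 6 of 17 and 0 of 3 members fell. The share of members that fell was thus below that of the genes in the shortest class and above it in the middle class, whereas the median of the members was the lower one in each class.

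The gap between KO replicate 1 and the mean of KO replicates 2 and 3 followed length too. Its median was -0.48 for the short genes, 0.12 for those of 1000 to 2000 nt and 0.15 for the longer ones. For all 23, 18 and 6 members of these lengths it was -0.44, -0.32 and -0.08. The part of transcript length in the result was not tested.

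**Figure D4:**
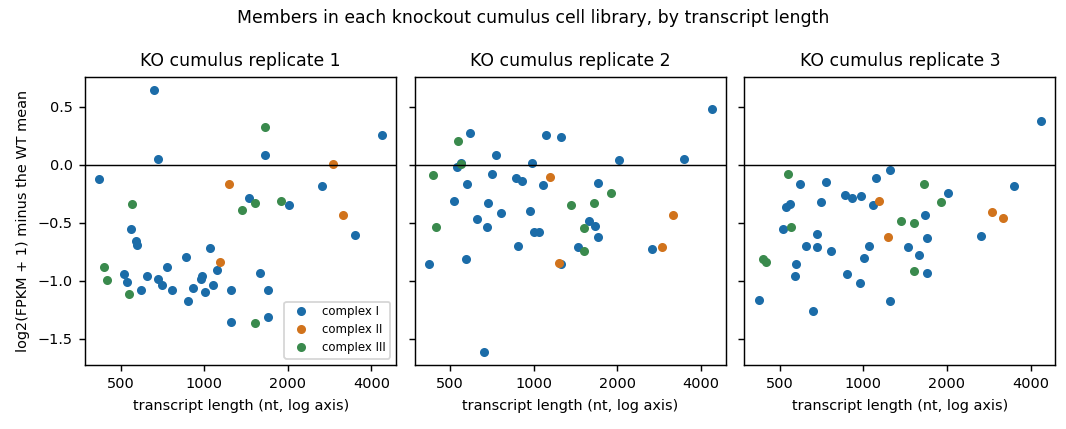
Difference of log2(FPKM + 1) from the WT mean (y) against the annotated transcript length (x, nt, log axis) for the 47 members in each KO cumulus library. In replicate 1 most members shorter than 1000 nt lie below the line at 0, and so do most of those of 1000 to 2000 nt. The class medians of its gap to the other KO libraries are -0.44 and -0.32. In each KO library short and long members overlap.

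Markers of other cells also moved between the genotypes. Of the 7 granulosa markers, 5 fell in cumulus cells, and the summed level of the list was 2674 to 3712 FPKM in WT against 2340 to 2677 FPKM in KO. The 4 red blood cell markers listed summed to 4.37 to 26.8 FPKM in WT against 0.3 to 1.78 FPKM in KO, and 1 of them fell. The 11 oocyte markers summed to 4.28 to 7.96 FPKM and 2.6 to 3.08 FPKM, with 1 of 4 tested that fell. The 8 leukocyte markers summed to 4.88 to 54.7 FPKM in WT against 8.38 to 57.6 FPKM in KO, with 1 that fell and 1 that rose. The 9 theca and stroma markers summed to 18.8 to 67.4 FPKM and 12.8 to 34.2 FPKM, with 2 of 7 tested that fell, and none of the 5 endothelium markers passed the filter, with sums of 0.176 to 0.919 FPKM. The leukocyte marker Cd74 was at 0 in all 3 WT libraries and at 3.69, 1.54 and 5.69 FPKM in KO, and the endothelium marker Tek was at 0 in all 3 KO libraries. Of 4 genes chosen as markers of MGCs over cumulus cells, 2 fell: Lhcgr, the LH receptor, from a mean of 13 to 3.12 FPKM, and Cyp11a1, which makes pregnenolone, from 11.9 to 1.71 FPKM (limma adjusted p = 0.00933 and 0.00869). Nppc and Npr2 did not pass, with means of 25.9 and 18.6 FPKM in WT against 30.1 and 18.5 FPKM in KO. The sum of these 4 was 45.5 to 89.4 FPKM in WT and 39.4 to 62.8 FPKM in KO. The part of these markers in the result was not tested. WT replicate 3 also stood apart in the number of genes above 0, 27541 against 18788 to 19289 in the other cumulus libraries. Without WT replicate 3, 12 members (25.5%) fell and 1182 of 12252 genes fell.

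The genome of the mitochondrion itself encodes further subunits of complexes I and III, and also subunits of complex IV and the ATP synthase. In cumulus cells its 13 genes summed to 52558, 48649 and 40754 FPKM in WT and to 43120, 47023 and 45353 FPKM in KO. The groups overlapped, with a median log2 fold change of -0.04 over all 13 genes, whichever their complex, against -0.49 for the nuclear subunits of complexes I to III. Only mt-Nd3, a membrane subunit of complex I, fell, from 15, 20.5 and 6.05 FPKM to 0, 1.74 and 3 FPKM (limma adjusted p = 0.0135). A difference between the nuclear and the mitochondrial genes was not tested.

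**Figure D5:**
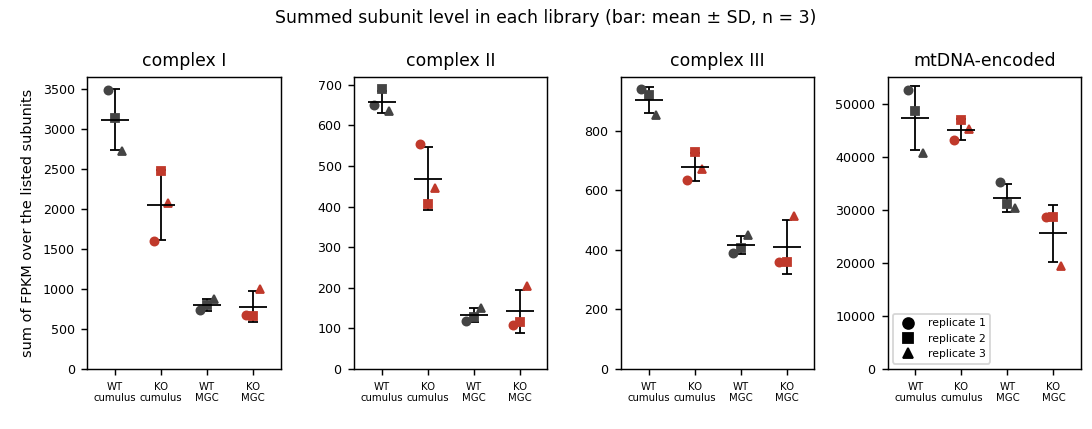
Summed FPKM of the 34 members of complex I, 4 of complex II, 9 of complex III and the 13 mtDNA-encoded genes in each library (y, from 0), by group (x), with the mean ± SD (n = 3). The sums of complexes I, II and III in KO cumulus libraries lie below those of all WT cumulus libraries, the mtDNA-encoded sums overlap, and in MGCs KO replicate 3 has the highest nuclear sums and the lowest mtDNA-encoded sum, 19440 FPKM.

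Other lists of the respiratory system give the setting. In cumulus cells 2 of 13 tested nuclear subunits of complex IV fell, 4 of 16 of the ATP synthase, 8 of 25 assembly factors of complexes I to III and 4 of 12 electron carriers and enzymes of ubiquinone synthesis, and none of them rose. Their medians were -0.61, -0.49, -0.37 and -0.41. Sdhaf4, an assembly factor of complex II, fell from 55.1 ± 11.5 to 21.4 ± 5.37 FPKM (n = 3 each), and Coq7, an enzyme of ubiquinone synthesis, from 31.9 ± 2.52 to 15.3 ± 0.211 FPKM (limma adjusted p = 0.00604 and 0.00295).

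The enzymes of the TCA cycle and pyruvate dehydrogenase had no call among 18 tested in limma (2 at an unadjusted p of 0.05 or less), with a median of -0.16, and 1 of 18 genes of the mitochondrial membrane, import and chaperones fell, with a median of 0.02. Of 10 tested regulators of respiratory genes, 0 fell and 1 rose. This was Pprc1, a coactivator of the PGC-1 family, at 1.64 ± 0.0985 FPKM in WT against 3.23 ± 0.769 FPKM in KO (limma adjusted p = 0.0276). Ndufs5, a nuclear subunit of complex I that is not among the members, was at 32.5, 25.5 and 18.5 FPKM in WT against 23.1, 39.3 and 28.7 FPKM in KO in cumulus cells (log2 fold change 0.25 ± 0.25, limma adjusted p = 0.511). Its groups overlapped, and its mean was higher in KO.

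In MGCs no member passed the test in either direction. None had an unadjusted p of 0.05 or less either. By the same rule 6 of 15279 genes passed (0.0393%), while 9.2% (1406) were at or under 0.05 before adjustment. The members lay on both sides of 0, with 25 below and 22 above, a median log2 fold change of -0.01 and a range from -0.31 to 0.18. Their standard errors, 0.10 to 0.33, were of the same size as these values. In 3 of the 47 members (6.38%) every KO library was below every WT library, against 9.17% of all genes.

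The members with the most negative changes in MGCs were small accessory subunits: Ndufa6 and Ndufa1, then Uqcr11 (log2 fold change -0.22) and Uqcrh. Ndufa6, of the N module, was at 90, 100.03 and 89.5 FPKM in WT and at 79.5, 62.8 and 83.8 FPKM in KO. Ndufa1, of the PP module, was at 43.6, 48.9 and 48.4 FPKM against 42.4, 37.5 and 38.2 FPKM, and Uqcrh, the hinge protein of complex III, at 65.6, 65.5 and 65.1 FPKM against 56.4, 55.7 and 59.1 FPKM. These 3 were the members without overlap between the groups. Their log2 fold changes were -0.31 ± 0.15, -0.25 ± 0.12 and -0.19 ± 0.10 (limma adjusted p = 0.579, 0.577 and 0.623).

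Others that the same rule named overlapped between the groups. Ndufb3 was at 26.5, 27.3 and 32.8 FPKM in WT against 23.2, 20.4 and 33.7 FPKM in KO, and Uqcr11 at 37.5, 39.2 and 42.1 FPKM against 28.7, 34.4 and 39.2 FPKM. Ndufab1, the mitochondrial acyl carrier protein, was at 2.31, 2.04 and 1.65 FPKM against 1.75, 2.16 and 3.33 FPKM, and Ndufb10 at 14.5, 16.5 and 18.5 FPKM against 15.6, 16 and 25 FPKM. In Ndufb3, Ndufab1 and Ndufb10 the highest of all 6 values was that of KO replicate 3.

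The core subunits of complex I showed the same picture in MGCs. Ndufs3 was at 19, 18.3 and 20.2 FPKM in WT against 16.5, 17.4 and 29.9 FPKM in KO. Ndufs8 was at 26, 31.1 and 43.3 FPKM against 27.9, 25.9 and 45.3 FPKM, and Ndufs7 at 10.2, 13.3 and 14.3 FPKM against 9.13, 9.18 and 21.9 FPKM. KO replicates 1 and 2 were within or below the WT range, and replicate 3 was above it. Ndufs1 (6, 6.37 and 8.65 against 6.19, 6.91 and 9.99 FPKM), Ndufv1 (25, 26.3 and 27.2 against 24.9, 25.4 and 38.9 FPKM) and Ndufv2 (18.6, 19.4 and 18.6 against 15.4, 15.2 and 30.6 FPKM) also had their highest value in KO replicate 3.

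Complex II repeated this. Sdha stood at 41.9, 42.7 and 64 FPKM in WT MGCs against 43.6, 44.5 and 86.1 FPKM in KO. Sdhb was at 21.8, 23.4 and 29 FPKM against 20.5, 19.6 and 32.9 FPKM, Sdhc at 15.8, 17.9 and 18 FPKM against 14.8, 15.7 and 23.6 FPKM, and Sdhd at 38.1, 44.5 and 39.7 FPKM against 30.3, 35.3 and 61.1 FPKM. Of the core subunits of complex III, Cyc1 was at 69.7, 72.5 and 86.2 FPKM against 73.2, 70.8 and 111 FPKM, Uqcrfs1 at 56, 57.5 and 64.7 FPKM against 51.6, 51 and 77.4 FPKM, Uqcrc1 at 26.3, 27.7 and 28.8 FPKM against 24.4, 25.2 and 41.4 FPKM, and Uqcrc2 at 36.1, 40.9 and 44.7 FPKM against 34.3, 37.2 and 48.8 FPKM. All 14 core subunits had the highest of the 6 values in KO replicate 3.

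Over all members, KO MGC replicate 3 held the highest of the 6 values in 38 of 47. It was above the WT range for 39 members and below it for 4, whereas replicates 1 and 2 were below it for 34 and 29 and above it for 1 each. The summed level of the members was 1240, 1329 and 1474 FPKM in WT against 1139, 1137 and 1721 FPKM in KO. The mtDNA-encoded genes went the other way, at 35215, 31202 and 30397 FPKM in WT against 28602, 28693 and 19440 FPKM in KO. KO replicate 3 also had the lowest summed markers of red blood cells, 30.6 FPKM against 230 to 404 FPKM in the other MGC libraries, and of leukocytes, 26 FPKM against 163 to 309 FPKM. The part of these differences in the result was not tested.

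Without KO MGC replicate 3 the median of the members was -0.20, and with replicate 1 or 2 left out in its place it was 0.10 or 0.11. No member passed in any of these limma fits, with 12 at or under 0.05 before adjustment without KO replicate 3 and 0 in the others. In the fit without KO replicate 3, 3147 of all 15215 genes were also at or under 0.05 before adjustment. After adjustment 111 of these 15215 genes fell and 167 rose, and the median of all genes was -0.09. Without replicate 3 of both genotypes, 4 members fell (Ndufb9, Ndufv2, Uqcrh and Uqcr10) and 11% of 15433 genes fell, against 8.51% of the members. The median was then -0.14, near that of all genes, -0.12.

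The last comparison asked whether the genotypes differed by the same amount in both cell types. The difference, the effect in cumulus cells minus that in MGCs, was negative for 46 of 47 members, with a median of -0.48, against -0.03 over the 15869 genes tested. It did not pass for any member in limma, whereas 624 genes (3.93%) passed. Before adjustment, 13 of the 47 members and 22.1% of all genes tested were at or under 0.05. The largest difference was that of Ndufc1, -1.20 ± 0.37 (limma adjusted p = 0.0849), followed in the order of p by Ndufs4, -0.94 ± 0.30 (adjusted p = 0.0969). Ndufa6 had the smallest, -0.01 ± 0.38. A fall of the 11 members in cumulus cells and not in MGCs was therefore not shown to be a difference between the cell types.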

How the data were processed

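RNA sequencing of 12 libraries, 3 per genotype and cell type, had been deposited as 2 tables, 1 per cell type. The authors' values, 1 per Ensembl gene, have no unit in the deposited tables and were taken as FPKM, since value times exon length fell, for most genes, on whole multiples of a step in each library. The submitters' processing notes name HISAT2 and GRCm38, and the counting tool is not given in the sources used here. Gene names, exons and transcript lengths came from GENCODE M21. Fragment counts behind each value were recovered from the steps between the deposited FPKM values, and intervals from them cover counting error only. Differences were fitted in limma (version 3.58.1, R 4.3.3), with an intensity trend, to log2(FPKM + 1), which understates changes of low genes, keeping genes whose mean reached 0.5 FPKM in either genotype. P-values were adjusted by Benjamini-Hochberg over all genes tested, and a member passed at 0.05 or less. The interaction was fitted over all 12 libraries. The method was checked on simulated data. Members, lists and tests were chosen with earlier results of these data known. Values per library were given for core subunits, the 5 complex I and 2 complex III members with the largest change in each cell type, and members whose sign went against the median in cumulus cells. Same-numbered MGC libraries deviated together (correlations 0.22, 0.158 and 0.224), which was taken as pairing, although the labels give only the numbers. Those of cumulus cells did not (-0.148, -0.0511 and 0.115). The main fits, those of MGCs and of the interaction included, held no replicate block, so that their p-values leave this pairing out. Alternatives were other pseudocounts, filters, scalings, a block and each library left out. One gene outside the members is not reported here.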

Additional observations from a re-analysis of the deposited data

How the results depend on the processing

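In cumulus cells the median log2 fold change of the members was negative under every alternative, from -0.61 to -0.41, and 42 to 46 of the 47 had a negative sign. The number that fell, 11, depended more on the setting. It was 2 with no filter on low values, where 692 of 30985 genes fell. After quantile normalization (median -0.41) it was 7, where 1320 of 12205 genes fell. With a 2-fold change as well it was 2, where 470 of 12205 genes fell. With one library left out it ran from 0 to 16 and the median from -0.61 to -0.45, while the number of all genes that fell ran from 684 to 2197, against 1546. With a pseudocount of 0.1, a filter of 5 FPKM, scaling to the library sum, median centring or no trend, it was 11, 13, 8, 10 and 12. Over all genes tested, 1514 of 12205, 1065 of 5682, 1184 of 15335, 1402 of 12205 and 1546 of 12205 fell in these fits. With a replicate block the number of members that fell was 7 in cumulus cells, and 1084 of 12205 genes fell. In these cells same-numbered libraries share only a number, and 2 of 6 libraries were closest to one of their own number. In MGCs, where the numbers were taken to pair the libraries, the replicate block left the count at 0, and it changed no other call of a member. Also in MGCs, 4 members fell without replicate 3 of both genotypes (1704 genes in all fell, against 5), among them Ndufv2, whose log2 fold change went from 0.04 to -0.29. The 14 other alternatives in MGCs gave 0 members. For the difference between the cell types, 0 members passed in most fits, 1 was lower and 1 higher without replicate 3 of both genotypes of MGCs, and with one library left out 0 to 1 were lower. The cause of these shifts was not tested. With 3 libraries a group, the standard errors of the members were 0.13 to 0.51 in cumulus cells and 0.10 to 0.33 in MGCs.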

Other observations

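Several members have near-identical copies in the genome, at 95% identity or more over at least 150 bases of transcript. Gm15920, a processed pseudogene with 99.5% identity to Ndufa12, was listed at 31.7 FPKM in WT and 33 FPKM in KO cumulus cells. Gm4459, a pseudogene of Ndufab1 with 99.8% identity, was listed at 52.7 FPKM and 39.7 FPKM in cumulus cells, above Ndufab1 itself at 5.73 FPKM in WT. In MGCs the same pseudogene was at 3.16 FPKM. Gm12251, a pseudogene of Ndufs3 with 98.6% identity, stood at 33.9 FPKM in WT against 21.8 FPKM in KO cumulus cells, which is the direction of Ndufs3. Ndufb4c, a pseudogene identical to Ndufb4 over 390 bases, was listed at 4.43 FPKM in WT and 3.32 FPKM in KO cumulus cells, and Gm16418, with 98.8% identity to Uqcr11, at 5.54 FPKM and 3 FPKM. Uqcrb has 3 such copies, of which Gm2962 was highest at 11.8 FPKM in WT cumulus cells. How fragments that match several places had been counted is not given in the sources used here, so the split of fragments between these genes and Ndufa12, Ndufab1, Ndufb4, Ndufs3, Uqcr11 and Uqcrb is uncertain.

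The exons of Ndufb8 and Ndufb9 overlap those of a gene on the same strand (Gm20538 and Gm49356), as those of Ndufb2 do, and further members overlap a gene on the opposite strand. The strand setting of the counting is not given in the sources used here.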
